A study of Mus musculus with 18 samples.

Results

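The RNA of sorted wildtype (WT) colon epithelial cells was compared with that of WT colon crypts, the tissue such cells are sorted from. The comparison rested on 4 libraries, 2 of sorted cells (labelled Epcam WT) and 2 of crypts (labelled Crypts WT), which stand in 1 table with a common scale. Values are CP20M, the reads of a gene per 20000000 reads on genes in that library. A gene was tested when at least 2 of these 4 libraries held at least 40 CP20M, which 15434 of the 52636 genes of the table did. Of the tested genes, 13027 reached 40 CP20M in all 4 libraries, 603 only in both sorted samples and 349 only in both crypt libraries, and the 37202 other genes were not tested. Positive log2 fold changes are higher in the sorted cells throughout.

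The study examined Olfr78, an odorant receptor for short-chain fatty acids, in the mouse colon. All libraries used here came from the Olfr78-GFP line, in which the knock-in allele carries GFP and lacks the receptor. The crypt libraries came from 2 WT mice, 1 library each, whose crypts were released from the colon with EDTA on ice. Both sorted samples came from 1 WT mouse, so their spread is that between 2 samples of 1 animal. Its crypts were dissociated further with warm enzyme, stained with an antibody to Epcam, a surface protein of epithelial cells, and sorted by flow cytometry as Epcam+ cells, named GFP-ve in the sample titles. RNA was purified with 1 kit from the crypts and with another from the sorted cells. The cell type label of the sorted samples reads enteroendocrine, but the gate took epithelial cells in general. Mice for sorting were 4 to 7 months old, and the sources used here give no age for the mice of the crypt libraries. Dissociation, staining, sorting, RNA kit, mouse and depth all differ between the groups and cannot be told apart, and the p-values measure only the spread between these samples. A permutation of 2 against 2 samples cannot give an exact p below 0.333, so single values were tested in limma's fit across all genes.

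A contrast that shares no library with the first came from mice homozygous for the Olfr78-GFP allele. It set 2 pools of sorted Epcam+/GFP+ve cells of knockout (KO) mice, 2 mice a pool, against crypts of 5 KO mice. Those cells were gated on GFP, which selects Olfr78-positive enteroendocrine cells, so they are another cell type than the WT sorted cells. Pools of heterozygous (HE) GFP+ve cells are given as values only.

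Immediate early genes encode short-lived transcription factors and signalling proteins whose transcription starts within minutes of a stimulus, without new protein synthesis. Heat shock genes encode chaperones that refold damaged proteins and are induced by heat shock factor. In the colon epithelium, stem cells and dividing cells lie at the crypt base, and cells that move up mature into absorptive colonocytes at the surface or into goblet, enteroendocrine or tuft cells. The keratins *Krt8*, *Krt18* and *Krt20* mark this simple epithelium, while *Krt5* and *Krt14* mark the basal layer of stratified squamous epithelium such as that of the anus and skin.

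Depth differed between the groups. The sorted samples held 2237486 and 1946873 reads on genes and the crypts 7510629 and 8837749. A single read was worth 8.94 and 10.3 CP20M in the sorted samples and 2.66 and 2.26 CP20M in the crypts, so a difference of a few reads was not detectable in the sorted cells. The median SD of log2 values between replicates was 0.22 for the sorted samples and 0.10 for the crypts. Epithelial genes were abundant in both groups. *Epcam* was 21221 and 21676 CP20M in the WT crypts and 17189 and 16581 CP20M in the sorted samples, with a log2 fold change of -0.35 ± 0.10 (SE), and none of the 20 simple epithelium genes tested was called (median -0.47).

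At an adjusted p under 0.05 (limma, Benjamini-Hochberg) and a log2 fold change beyond 1, 1530 genes were called, which is 9.91% of those tested. Of these, 716 were higher in the sorted cells (4.64%) and 814 lower (5.27%), and 3791 genes passed the adjusted p alone. The median log2 fold change over all tested genes was -0.26. The direction of the calls depended on the scaling. Higher genes were 46.8% of the calls on the deposited scale, 60.1% after TMM rescaling, 67.0% after median-of-ratios rescaling, 71.7% with edgeR and 76.4% with DESeq2 on the recovered reads, which moved the median of all genes by 0.13, 0.19, 0.26 and 0.27. Each list below is therefore set beside -0.26, and its counts of calls are to be read beside 4.64% higher and 5.27% lower. No called named gene changed direction under any scaling, but the calls of *Hspa8*, *Xbp1*, *Relb*, *Slc9a2*, *Krt20*, *Clca1*, *Gcg*, *Pyy*, *Ctss*, *Lyz2*, *Igkc*, *Col1a2*, *Mylk*, *Synpo2*, *Duox2*, *Duoxa2*, *Rtp4*, *Gbp2*, *Pvt1*, *Meg3*, *Plec*, *Lamb3*, *Itgav*, *Lama3*, *Cd3e*, *Cd7* and *Ighm* were lost under at least 1 of them. So were those of the short RNAs *Snora3*, *Snora52*, *Snora69*, *Scarna6*, *Mir5625*, *Mir6418*, *Mir8104* and *Mir8114*.

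**Figure D1:**
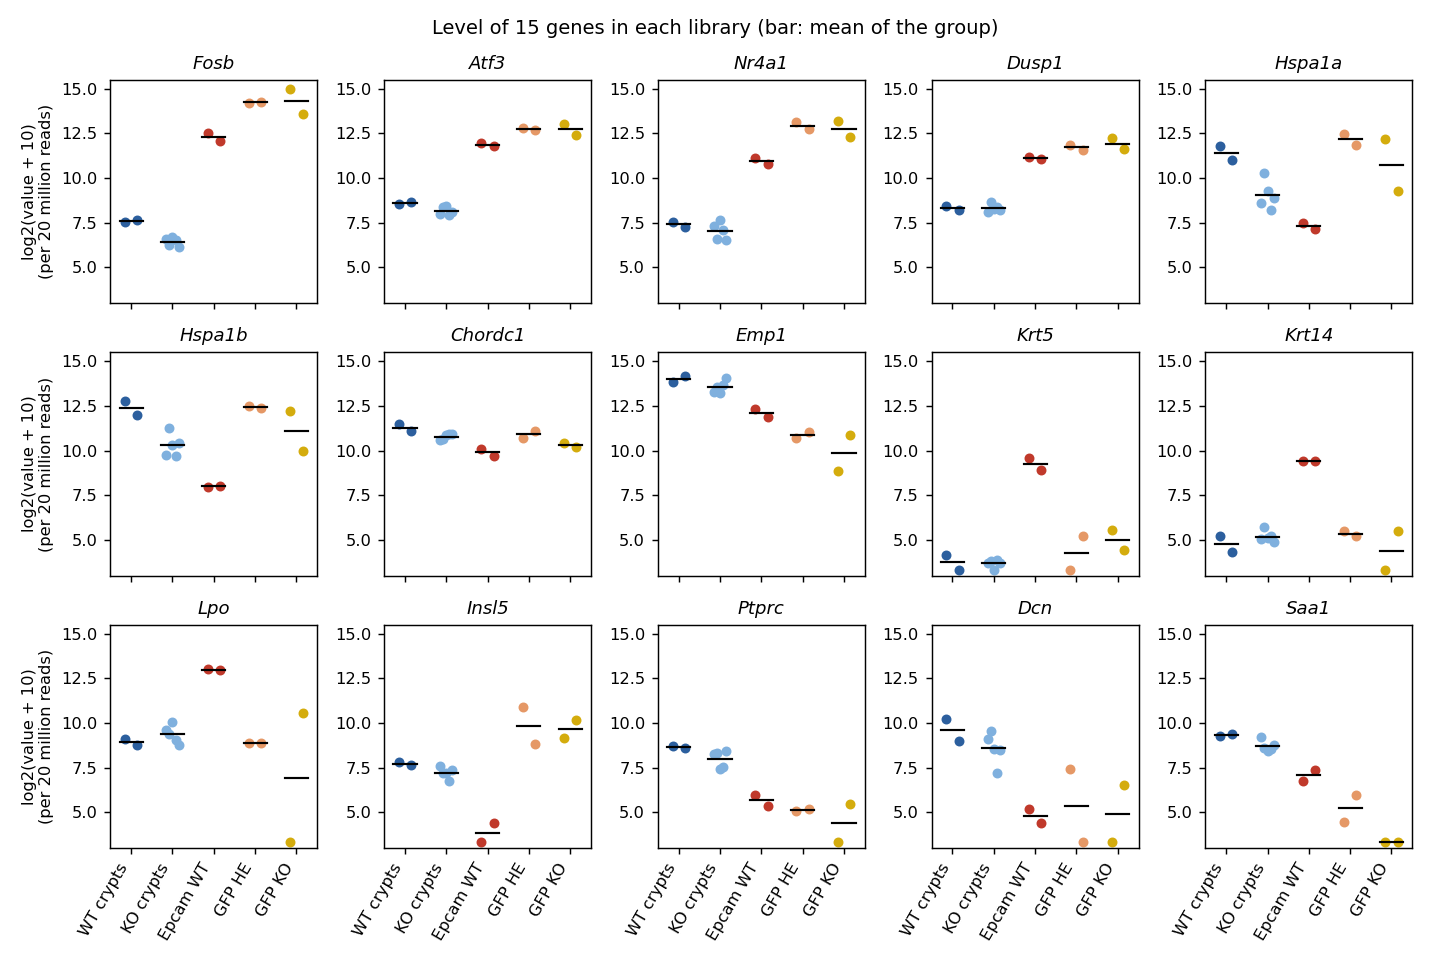
Level of 15 genes as log2(CP20M + 10) on the vertical axis in the WT crypts (2 libraries), KO crypts (5), Epcam WT sorted samples (2), GFP HE pools (2) and GFP KO pools (2), 1 point per library and a bar at each group's mean. *Fosb*, *Krt5*, *Krt14* and *Lpo* lie above all 7 crypt libraries in both Epcam WT samples, and *Hspa1b*, *Insl5* and *Dcn* lie below them.

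The immediate early genes were higher in the sorted cells as a group. Of 33 members tested (34 found), 16 rose and 0 fell, and the median log2 fold change was 0.99. Of the 16, *Egr2*, *Egr3* and *Nr4a3* reached 40 CP20M in the sorted samples alone, so these 3 were tested only because they were high there. The summed level of the list was 40824 and 40360 CP20M in the WT crypts and 78651 and 69748 CP20M in the sorted samples, against 32394 to 39646 CP20M in the KO crypts. Both sorted samples lay above all 7 crypt libraries for 20 of the 33 tested members, 15 of them called, and below all 7 for 4. Over all tested genes these shares were 10.8% and 34.0%.

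The promoters of a few of these genes are shown because they carry, or lack, the elements by which immediate early and heat shock genes are classically switched on. Sequences are RefSeq's for GRCm38.p6, from 250 bases before to 50 bases after the transcription start, 5′ to 3′ on the gene's own strand, with the motif found in capitals. *Fosb*, which had the greatest log2 fold change of the list, held no element searched. *Dusp1* held a cyclic AMP response element, *Zfp36* a CArG box and *Chordc1*, a heat shock gene, heat shock elements that overlap each other.
Fosb, chr7:19309996-19310295, minus strand: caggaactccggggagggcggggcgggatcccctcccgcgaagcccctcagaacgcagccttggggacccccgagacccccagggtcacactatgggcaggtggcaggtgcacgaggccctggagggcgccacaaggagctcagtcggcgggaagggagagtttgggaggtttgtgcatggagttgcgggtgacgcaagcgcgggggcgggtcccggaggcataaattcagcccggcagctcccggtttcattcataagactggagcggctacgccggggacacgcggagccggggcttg
Dusp1, chr17:26508423-26508722, minus strand: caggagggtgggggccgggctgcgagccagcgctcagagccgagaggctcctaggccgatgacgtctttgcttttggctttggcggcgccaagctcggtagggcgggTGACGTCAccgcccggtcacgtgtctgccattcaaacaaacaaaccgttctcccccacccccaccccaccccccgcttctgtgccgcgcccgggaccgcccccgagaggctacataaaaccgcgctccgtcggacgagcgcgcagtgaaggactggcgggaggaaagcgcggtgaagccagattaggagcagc
Zfp36, chr7:28379179-28379478, minus strand: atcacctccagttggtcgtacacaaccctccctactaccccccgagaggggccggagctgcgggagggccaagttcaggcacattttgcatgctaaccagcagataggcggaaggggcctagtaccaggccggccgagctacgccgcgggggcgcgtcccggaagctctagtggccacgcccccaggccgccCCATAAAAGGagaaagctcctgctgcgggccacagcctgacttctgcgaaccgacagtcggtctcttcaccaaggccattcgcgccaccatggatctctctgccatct
Chordc1, chr9:18292017-18292316, plus strand: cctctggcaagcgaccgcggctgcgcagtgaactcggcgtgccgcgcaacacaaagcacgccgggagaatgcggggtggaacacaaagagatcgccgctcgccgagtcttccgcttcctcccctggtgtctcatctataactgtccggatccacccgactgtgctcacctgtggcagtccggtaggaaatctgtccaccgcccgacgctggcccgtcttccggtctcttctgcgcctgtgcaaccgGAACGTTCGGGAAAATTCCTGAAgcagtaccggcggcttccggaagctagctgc

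The motifs searched, on both strands, were the cyclic AMP response element TGACGTCA, bound by CREB and ATF proteins, the AP-1 site TGANTCA, bound by Fos and Jun proteins, the CArG box, bound by serum response factor, and the heat shock element, here 3 alternating GAA and TTC units with 2 bases between them. Over all 32851 promoters of the table (27025 genes), 1.79% held the cyclic AMP response element, 7.81% the AP-1 site, 1.63% a CArG box and 0.603% a heat shock element. Of the 16 immediate early genes that rose, 12 matched the table with 16 promoters. The cyclic AMP response element stood in 2 of these promoters, those of *Dusp1* and *Ppp1r15a*, at -143 and -12 bases from the start. A CArG box stood in 5 promoters of 2 genes, *Egr2* and *Zfp36*, and the AP-1 site in 0. Several windows of *Egr2* overlap and hold the same box, so the promoter count exceeds the count of separate boxes. Of the 17 immediate early genes tested and not called, 14 matched with 16 promoters, and 2 promoters held the cyclic AMP response element, 1 the AP-1 site and 0 a CArG box. The matches are letters in these windows only, and elements farther upstream were not searched.

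Among the transcription factors of the list, *Fosb* (chr7:19302696-19310051, minus strand), a partner of Jun in the AP-1 factor, was 176 and 195 CP20M in the WT crypts and 5775 and 4233 CP20M in the sorted samples, a log2 fold change of 4.67 ± 0.18 (SE; limma adjusted p = 4.90e-06). Both sorted samples lay far above both crypt libraries, and the KO crypts held 62, 83 and 95 CP20M (lowest, median and highest of 5). *Atf3*, a stress-induced repressor, was 363 and 390 CP20M in the WT crypts and 3916 and 3596 CP20M in the sorted samples, a log2 fold change of 3.28 ± 0.14 (SE; limma adjusted p = 7.02e-06). *Nr4a1*, an orphan nuclear receptor, was 176 and 145 CP20M in the WT crypts and 2190 and 1788 CP20M in the sorted samples, a log2 fold change of 3.55 ± 0.19 (SE; limma adjusted p = 3.91e-05). In neither gene did the groups overlap, and the KO crypts held 233 to 335 CP20M of *Atf3* and 84 to 190 CP20M of *Nr4a1*. The canonical member *Fos* was already abundant in the crypts and rose less, with 3012 and 2549 CP20M in the WT crypts and 10325 and 10037 CP20M in the sorted samples, a log2 fold change of 1.87 ± 0.12 (SE; limma adjusted p = 9.61e-05). *Jun* (log2 fold change 1.69), *Fosl1* (1.59), *Egr1* (1.86), *Egr2* (3.55), *Egr3* (2.91), *Nr4a2* (1.44), *Nr4a3* (1.46) and *Klf2* (1.84) rose too. These genes, like *Fos*, are outside the rule for named genes and are named because they are members that passed.

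Members that shut signals down rose as well. *Dusp1*, a phosphatase of MAP kinases, was 331 and 292 CP20M in the WT crypts and 2298 and 2168 CP20M in the sorted samples, a log2 fold change of 2.80 ± 0.15 (SE; limma adjusted p = 3.98e-05). *Zfp36*, which destabilises mRNAs with AU-rich ends, was 911 and 838 CP20M in the WT crypts and 2182 and 2240 CP20M in the sorted samples, a log2 fold change of 1.33 ± 0.13 (SE; limma adjusted p = 6.45e-04). *Ppp1r15a*, a phosphatase subunit that restores translation after stress, had a log2 fold change of 2.06. *Cyr61*, a secreted matrix protein, was 83 and 55 CP20M in the WT crypts and 2038 and 1470 CP20M in the sorted samples, a log2 fold change of 4.48 ± 0.26 (SE; limma adjusted p = 5.88e-05), with no overlap between the groups.

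The rise did not extend to every member. *Klf4*, a factor of mature surface cells, was 6666 and 7179 CP20M in the WT crypts and 4327 and 3699 CP20M in the sorted samples (log2 fold change -0.79), and *Ier5* and *Rhob* had log2 fold changes of -0.98 and -0.77, none past both thresholds. *Junb* (0.93), *Ier2* (0.78) and *Btg2* (0.78) lay above the median of all genes without a log2 fold change beyond 1. Leaving out each library in turn gave 14 to 16 higher members.

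**Figure D2:**
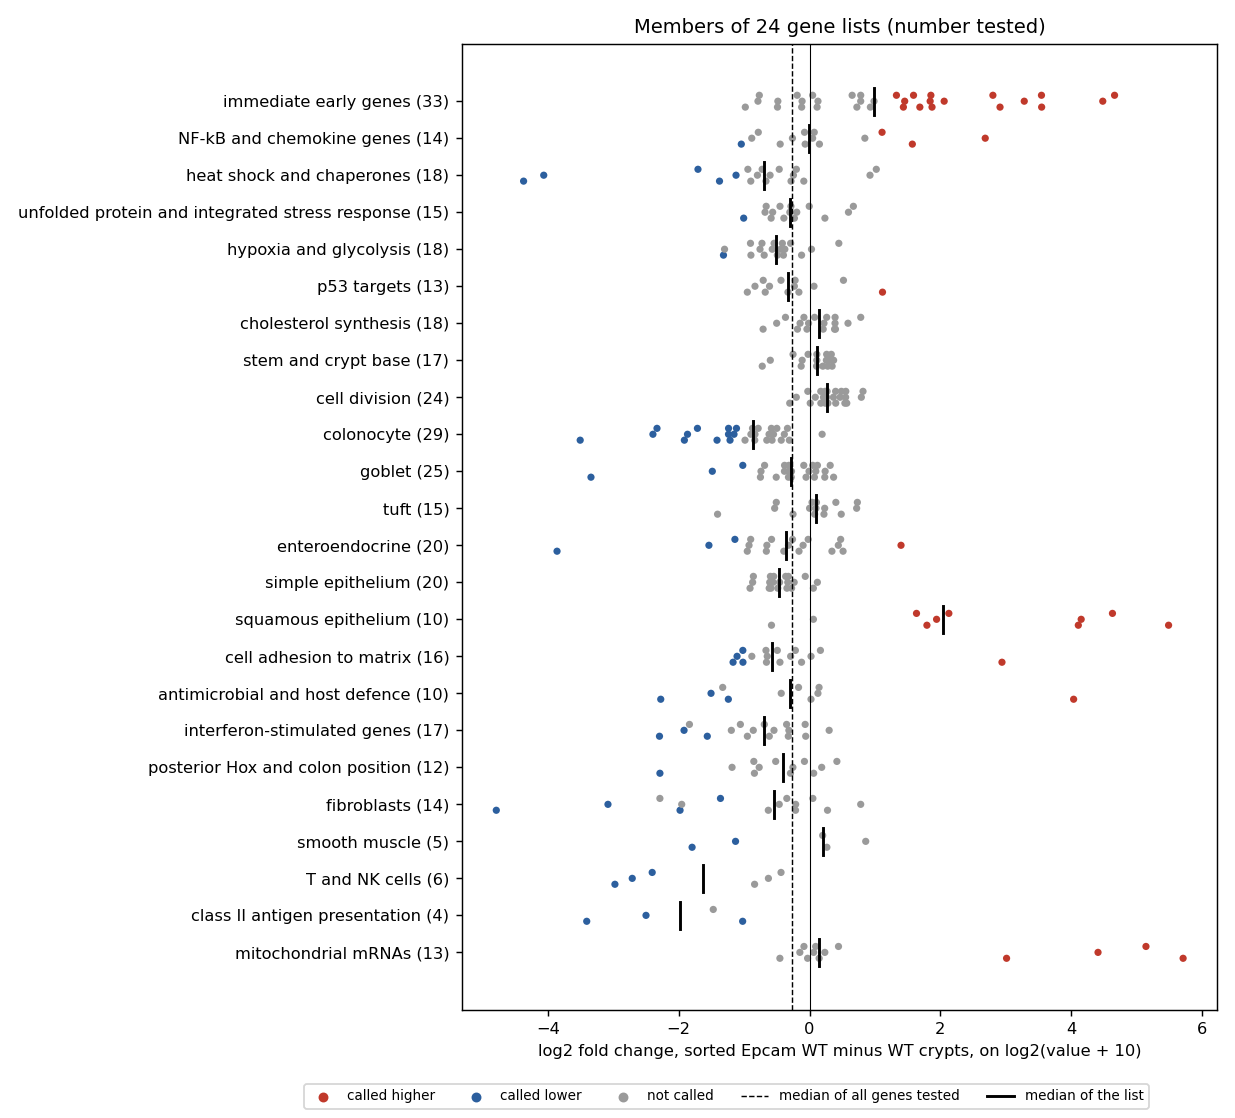
Log2 fold change (sorted minus WT crypts) of the tested members of 24 gene lists, 1 point per gene, with the list's median as a bar, called members in red (higher) or blue (lower) and the median of all tested genes, -0.26, as a dashed line. The median of the immediate early genes (0.99) lies to the right of that line, and those of the colonocyte genes (-0.87) and heat shock genes (-0.70) to its left.

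Heat shock genes were lower in the sorted cells than in the WT crypts. Of 18 members tested (20 found), 0 rose and 5 fell, with a median log2 fold change of -0.70 and a summed level of 117124 and 86637 CP20M in the WT crypts and 59443 and 59131 CP20M in the sorted samples. The list ranged from 63921 to 81328 CP20M in the KO crypts, so both WT crypt libraries lay above every other crypt library. With WT and KO crypts as 1 group the median log2 fold change was -0.40. Both sorted samples lay below all 7 crypt libraries for 7 of the 18, the 5 that fell among them, and above all 7 for 1. Over all tested genes these shares were 34.0% and 10.8%, so the share below was near that of all genes. *Hspa1b* (chr17:34956436-34959238, minus strand) and *Hspa1a* (chr17:34969190-34972156, minus strand), neighbouring genes for the inducible Hsp70, fell most. *Hspa1b* was 6924 and 3999 CP20M in the WT crypts and 242 and 247 CP20M in the sorted samples, a log2 fold change of -4.37 ± 0.24 (SE; limma adjusted p = 3.91e-05). The KO crypts held 834, 1246 and 2462 CP20M of it, lower than both WT crypts, while the sorted samples lay below all 7 crypt libraries. *Hspa1a* was 3563 and 2021 CP20M in the WT crypts and 170 and 134 CP20M in the sorted samples, a log2 fold change of -4.06 ± 0.27 (SE; limma adjusted p = 1.18e-04). The genes share 63.6% and 56.5% of their 50-base words with another gene, so reads may be split between them and their separate values are uncertain.

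The other 3 heat shock genes that fell encode relatives or partners of these chaperones. *Chordc1*, a co-chaperone of Hsp90 whose promoter is printed above, was 2847 and 2144 CP20M in the WT crypts and 1073 and 833 CP20M in the sorted samples, a log2 fold change of -1.38 ± 0.18 (SE; limma adjusted p = 0.00221). *Hspa8*, the constitutive Hsp70, was 33422 and 23092 CP20M in the WT crypts and 12175 and 13335 CP20M in the sorted samples, a log2 fold change of -1.12 ± 0.17 (SE; limma adjusted p = 0.00353). *Hsph1*, an exchange factor of Hsp70, had a log2 fold change of -1.71. Of the 5 genes that fell, 4 matched the promoter table with 5 promoters, 3 of which held a heat shock element, those of *Chordc1* and *Hsph1*. The windows of *Hsph1* overlap and hold the same site. Those of *Hspa1a* and *Hspa1b*, the genes that fell most, held none. Of the 13 tested and not called, 10 matched with 15 promoters, 2 of which held the element. Without genes that share 20% or more of their words, 2 heat shock genes were called.

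Genes of mature surface colonocytes were lower as a group. Of 29 tested (30 found), 12 fell and 0 rose, and the median log2 fold change was -0.87. Both sorted samples lay below all 7 crypt libraries for 22 of the 29, the 12 that fell among them, and above all 7 for 0. Over all tested genes these shares were 34.0% and 10.8%. *Emp1*, a membrane protein, was 14886 and 18378 CP20M in the WT crypts and 5024 and 3822 CP20M in the sorted samples, a log2 fold change of -1.91 ± 0.16 (SE; limma adjusted p = 3.02e-04). The sodium-hydrogen exchangers of the apical membrane fell, *Slc9a3* from 2589 and 1999 to 698 and 545 CP20M (log2 fold change -1.87 ± 0.18, limma adjusted p = 6.45e-04) and *Slc9a2* from 6285 and 6201 to 2682 and 2600 CP20M (log2 fold change -1.24 ± 0.10, limma adjusted p = 3.26e-04). *Aqp8*, a water channel, was 1886 and 3058 CP20M in the WT crypts and 528 and 381 CP20M in the sorted samples, a log2 fold change of -2.39 ± 0.25 (SE; limma adjusted p = 8.05e-04). In each of these genes both sorted samples lay below both crypt libraries. The proton pump gene *Atp12a* had a log2 fold change of -3.51, and the chloride-bicarbonate exchanger *Slc26a3* one of -1.15. *Krt20*, the keratin of surface cells, was 9052 and 8833 CP20M in the WT crypts and 4434 and 3822 CP20M in the sorted samples, a log2 fold change of -1.12 ± 0.11 (SE; limma adjusted p = 7.85e-04). With edgeR, as with DESeq2, 7 colonocyte genes passed. Fewer cells of a type and less of its RNA per cell cannot be told apart in these bulk samples.

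Colonocyte genes did not all fall by the same amount. *Car1*, a carbonic anhydrase, was 105749 and 111936 CP20M in the WT crypts and 75147 and 66795 CP20M in the sorted samples (log2 fold change -0.62 ± 0.12, limma adjusted p = 0.0106), under the fold threshold. Among genes of any function, *Sgk1*, a kinase that raises sodium uptake, was 7009 and 7760 CP20M in the WT crypts and 1824 and 1798 CP20M in the sorted samples, a log2 fold change of -2.02 ± 0.11 (SE; limma adjusted p = 4.27e-05). *Slc40a1*, the iron exporter ferroportin, was 2259 and 2684 CP20M in the WT crypts and 483 and 483 CP20M in the sorted samples, a log2 fold change of -2.33 ± 0.15 (SE; limma adjusted p = 9.61e-05). Both were picked after their values were seen, from the lower genes with little shared sequence.

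The secretory lineages showed fewer calls. In the goblet list 3 of 25 tested fell and 0 rose (median -0.28, close to that of all genes). *Ang4*, an antimicrobial ribonuclease, was 677 and 881 CP20M in the WT crypts and 54 and 83 CP20M in the sorted samples, a log2 fold change of -3.34 ± 0.29 (SE; limma adjusted p = 3.46e-04), and *Spdef*, the transcription factor of goblet maturation, had a log2 fold change of -1.49, while *Muc2*, the main mucin, did not pass (-0.32 ± 0.17, limma adjusted p = 0.199). *Clca1*, a protease of mucus, fell by 1.02 on the log2 scale. In the enteroendocrine list 1 rose and 3 fell of 20 tested. *Insl5*, the peptide hormone of distal colon L cells, was 214 and 188 CP20M in the WT crypts and 0 and 11 CP20M in the sorted samples, that is 1 read in the sorted samples and 163 in the WT crypts, and the crypt level exceeded the sorted level by a factor of 41.7 (exact 95% interval 7.38 to 1658), an interval that covers counting error only. *Pyy*, peptide YY of the same cells, was 222 and 258 CP20M in the WT crypts and 45 and 124 CP20M in the sorted samples (log2 fold change -1.54, limma adjusted p = 0.0350), and *Sst*, somatostatin, was 64 and 98 CP20M in the WT crypts and 260 and 196 CP20M in the sorted samples (log2 fold change 1.40, limma adjusted p = 0.0201). *Chga*, chromogranin A of all these cells, was 3896 and 1886 CP20M in the WT crypts and 3504 and 3380 CP20M in the sorted samples, with a log2 fold change of 0.34 ± 0.28 that did not pass, and the WT crypts themselves differed by more than the groups did.

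Position along the gut was read from the posterior Hox genes, of which 1 of 12 tested fell, beside 5.27% of all tested genes. *Hoxd13*, expressed at the distal end, was 277 and 426 CP20M in the WT crypts and 54 and 72 CP20M in the sorted samples, a log2 fold change of -2.29 ± 0.33 (SE; limma adjusted p = 0.00306), while *Hoxb13* had a log2 fold change of -0.84 and did not pass.

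Genes of the crypt base and of dividing cells were not called, though 21 of the 24 division genes tested had a log2 fold change above 0. None of the 17 stem cell genes, 24 cell division genes or 15 tuft genes tested passed both thresholds, with median log2 fold changes of 0.11, 0.27 and 0.10, all above the -0.26 of all genes. Both sorted samples lay above all 7 crypt libraries for 15 of the 24 division genes and below all 7 for 0. These counts were 3 and 2 for the 17 stem cell genes and 2 and 1 for the 15 tuft genes. Over all tested genes the shares were 10.8% and 34.0%. The summed level of the division list was 31217 and 31141 CP20M in the WT crypts and 44348 and 42704 CP20M in the sorted samples, and the KO crypts held 29989 to 33806 CP20M. *Mki67*, a protein of dividing nuclei, was 8072 and 7914 CP20M in the WT crypts and 14526 and 13211 CP20M in the sorted samples, a log2 fold change of 0.79 ± 0.10 (SE; limma adjusted p = 0.00217) that passed the p threshold and not the fold threshold. *Lgr5*, the receptor that marks colon stem cells, had a log2 fold change of 0.28 ± 0.21, and *Dclk1* of tuft cells one of 0.04 ± 0.16. All 18 cholesterol synthesis genes were tested and none was called (median 0.14).

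Keratins of squamous epithelium were found in the sorted samples at a level well above that of the crypts. Of 20 list members 10 were tested, 8 of which rose and 0 fell. All 8 reached 40 CP20M in the sorted samples alone, so they passed the filter on low values only by being high there. Their count and p-values are descriptions. *Krt5* (chr15:101707070-101712898, minus strand) was 8 and 0 CP20M in the WT crypts and 760 and 463 CP20M in the sorted samples, a log2 fold change of 5.49 ± 0.44 (SE; limma adjusted p = 2.87e-04). These were 130 reads in the sorted samples and 3 in the WT crypts, a ratio of levels of 169 (exact 95% interval 56.7 to 832). *Krt14* (chr11:100203162-100207548, minus strand), its partner in the basal filament, was 27 and 10 CP20M in the WT crypts and 662 and 668 CP20M in the sorted samples, a log2 fold change of 4.63 ± 0.37 (SE; limma adjusted p = 2.87e-04). Both sorted samples carried these basal keratins, and both lay above every crypt library of the line. *Krt6a*, a keratin of wounded and mucosal squamous layers, was 0 and 3 CP20M in the WT crypts and 242 and 144 CP20M in the sorted samples (41 reads in the sorted samples and 1 in the WT crypts), a ratio of 160 (exact 95% interval 27.2 to 6479). *Krt17* was 6 and 3 CP20M in the WT crypts and 367 and 165 CP20M in the sorted samples (57 reads in the sorted samples and 3 in the WT crypts), a ratio of 74.2 (exact 95% interval 24.2 to 371). *Krt5*, *Krt6a* and *Krt17* were near 0 in the crypts, and these intervals cover counting error only. *Krt13*, *Krt15* and *Krt16* had log2 fold changes of 1.80, 1.64 and 2.13. *Trp63*, the p63 factor of basal cells, was 6 and 10 CP20M in the WT crypts and 81 and 42 CP20M in the sorted samples (log2 fold change 1.94, limma adjusted p = 0.0311), close to the threshold.

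In the list of adhesion to matrix 1 of 16 tested rose and 4 fell (median -0.57). *Col17a1*, a collagen of hemidesmosomes that reached 40 CP20M in the sorted samples alone, was 32 and 23 CP20M in the WT crypts and 322 and 237 CP20M in the sorted samples, a log2 fold change of 2.94 ± 0.36 (SE; limma adjusted p = 0.00163), whereas *Lama3*, *Lamb3*, *Itgav* and *Plec* fell by 1.02, 1.02, 1.17 and 1.11 on the log2 scale. Of the squamous genes, *Serpinb5* (-0.58) and *Sprr1a* (0.06) did not pass. The summed level of the squamous list was 1460 and 1613 CP20M in the WT crypts and 3672 and 2894 CP20M in the sorted samples, 1299 to 1673 CP20M in the KO crypts and 454 to 969 CP20M in the 4 GFP+ve pools. The part of squamous cells in the other results was not tested. Without either sorted sample 2 genes of the list met the filter and 0 were called, and without either crypt library 4 were called.

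Some genes of leukocytes, fibroblasts and smooth muscle fell. *Ptprc*, the CD45 antigen of all leukocytes, was 413 and 374 CP20M in the WT crypts and 54 and 31 CP20M in the sorted samples, a log2 fold change of -2.98 ± 0.33 (SE; limma adjusted p = 0.00120). In the list of T and NK cells, 3 fell and 0 rose of the 6 tested (20 found). Of these 6, 3 reached 40 CP20M in the crypts alone, and the median log2 fold change was -1.62, or -1.21 with genes at 0 set to their bound. The summed level was 1137 and 1190 CP20M in the WT crypts and 305 and 341 CP20M in the sorted samples, and 20 of 20 members had a read in the crypts and 6 in the sorted samples. *Cd3e*, a chain of the T cell receptor complex, was 43 and 43 CP20M in the crypts and 0 in both sorted samples, at least 2.99-fold lower against a floor of 3 reads over both samples. *Cd7* was at least 3.84-fold lower and *Ighm*, the heavy chain of IgM, at least 4.27-fold lower on the same basis. Of the 13 B and plasma cell genes found 2 were tested, *Ighm* and *Igkc*. Both reached 40 CP20M in the crypts alone, so the filter set their direction.

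Class II antigen presentation fell in 3 of 4 genes tested (11 found), of which 2 reached 40 CP20M in the crypts alone, with a median log2 fold change of -1.99. *H2-Aa* was 83 and 111 CP20M in the crypts and 0 in both sorted samples, at least 6.83-fold lower, and *Cd74*, the invariant chain, was 227 and 195 CP20M in the WT crypts and 27 and 31 CP20M in the sorted samples, a log2 fold change of -2.50 ± 0.35 (SE; limma adjusted p = 0.00276). *Ctss*, the protease that trims the invariant chain, was the other that fell, with a log2 fold change of -1.02. In the myeloid list 1 of 5 tested fell, *Lyz2*, lysozyme of phagocytes, with 118 and 41 CP20M in the WT crypts and 9 and 11 CP20M in the sorted samples (log2 fold change -2.02 ± 0.57, limma adjusted p = 0.0347), and it reached 40 CP20M in the crypts alone. In the fibroblast list 4 of 14 tested fell and 0 rose (median -0.55), and 3 of the 14 reached 40 CP20M in the crypts alone. *Dcn*, decorin of the connective tissue, was 1175 and 492 CP20M in the WT crypts and 27 and 11 CP20M in the sorted samples, a log2 fold change of -4.79 ± 0.47 (SE; limma adjusted p = 6.50e-04), and *Col3a1* was 653 and 234 CP20M in the WT crypts and 45 and 31 CP20M in the sorted samples, a log2 fold change of -3.08 ± 0.48 (SE; limma adjusted p = 0.00386). The crypt libraries differed for both, mouse 1 holding more than mouse 2, and both lay above the sorted samples. *Col1a1* did not follow (307 and 86 CP20M in the WT crypts and 188 and 155 CP20M in the sorted samples, log2 fold change 0.05 ± 0.51). Of 5 smooth muscle genes tested 2 fell, *Mylk* and *Synpo2*, 3 lay above 0 and the median was 0.20. The summed smooth muscle list was 2582 and 2426 CP20M in the WT crypts and 2085 and 1668 CP20M in the sorted samples. For the endothelial list the sums overlapped, with 579 and 393 CP20M in the WT crypts and 324 and 557 CP20M in the sorted samples. None of the 3 endothelial (median 0.03), 2 neural and glial or 1 red blood cell genes tested was called. The part of leukocytes and fibroblasts in the other lower genes was not tested.

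Of 10 antimicrobial and host defence genes tested, 1 rose and 3 fell. *Lpo* (chr11:87806428-87828289, minus strand), lactoperoxidase, was 544 and 435 CP20M in the WT crypts and 8349 and 7962 CP20M in the sorted samples, a log2 fold change of 4.04 ± 0.14 (SE; limma adjusted p = 2.67e-06). Neither the KO crypts (431 to 1040 CP20M) nor the HE pools (461 and 467 CP20M) reached the level of the sorted WT samples, and the KO pools held 0 and 1511 CP20M. The call for *Lpo* was lost when all 13 libraries of the table were fitted together. *Duox2* and *Duoxa2*, the peroxide-producing oxidase and its maturation factor, fell by 1.24 and 1.51 on the log2 scale, and *Saa1*, an acute-phase protein, was 618 and 661 CP20M in the WT crypts and 99 and 155 CP20M in the sorted samples, a log2 fold change of -2.28 ± 0.26 (SE; limma adjusted p = 0.00132), with 29.9% of its words shared with other genes. Of 17 interferon-stimulated genes tested 3 fell and 0 rose (median -0.69), *Gbp2* with -2.29, *Rtp4* with -1.92 and *Ifit1* with -1.56. Among NF-kB and chemokine genes 3 rose and 1 fell of 14 tested, of which 2 reached 40 CP20M in the sorted samples alone, *Cxcl1* among these 2. *Cxcl1*, a neutrophil chemokine, was 14 and 5 CP20M in the WT crypts and 135 and 93 CP20M in the sorted samples, a log2 fold change of 2.69 ± 0.48 (SE; limma adjusted p = 0.00702), and *Nfkbia*, the inhibitor that NF-kB itself induces, was 749 and 1075 CP20M in the WT crypts and 1904 and 1993 CP20M in the sorted samples, a log2 fold change of 1.11 ± 0.18 (SE; limma adjusted p = 0.00474).

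Other stress lists held few calls. The unfolded protein list had 1 of 15 lower, *Xbp1* (-1.01), hypoxia and glycolysis 1 of 18 lower, *Ero1l* (-1.32), YAP and SRF targets 1 of 15 lower, *Lats2* (-2.16), p53 targets 1 of 13 higher, *Plk2* (1.12), and clock genes 1 of 15 higher, *Nfil3* (1.28). Their medians were -0.30, -0.52, -0.13, -0.33 and -0.29, beside -0.26 for all genes. The YAP and SRF list had a highest log2 fold change of 0.81. It did not hold *Cyr61*, counted above among the immediate early genes, or *Thbs1*, given below. Both of those genes rose, and the count for the list leaves them out. Over all tested genes 4.64% were called higher and 5.27% lower. *Xist* was 14 and 34 CP20M in the WT crypts and 126 and 155 CP20M in the sorted samples (log2 fold change 2.20, limma adjusted p = 0.0106), while the Y-linked *Ddx3y* was 1537 and 1440 CP20M in the WT crypts and 1404 and 1490 CP20M in the sorted samples and did not pass.

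**Figure D3:**
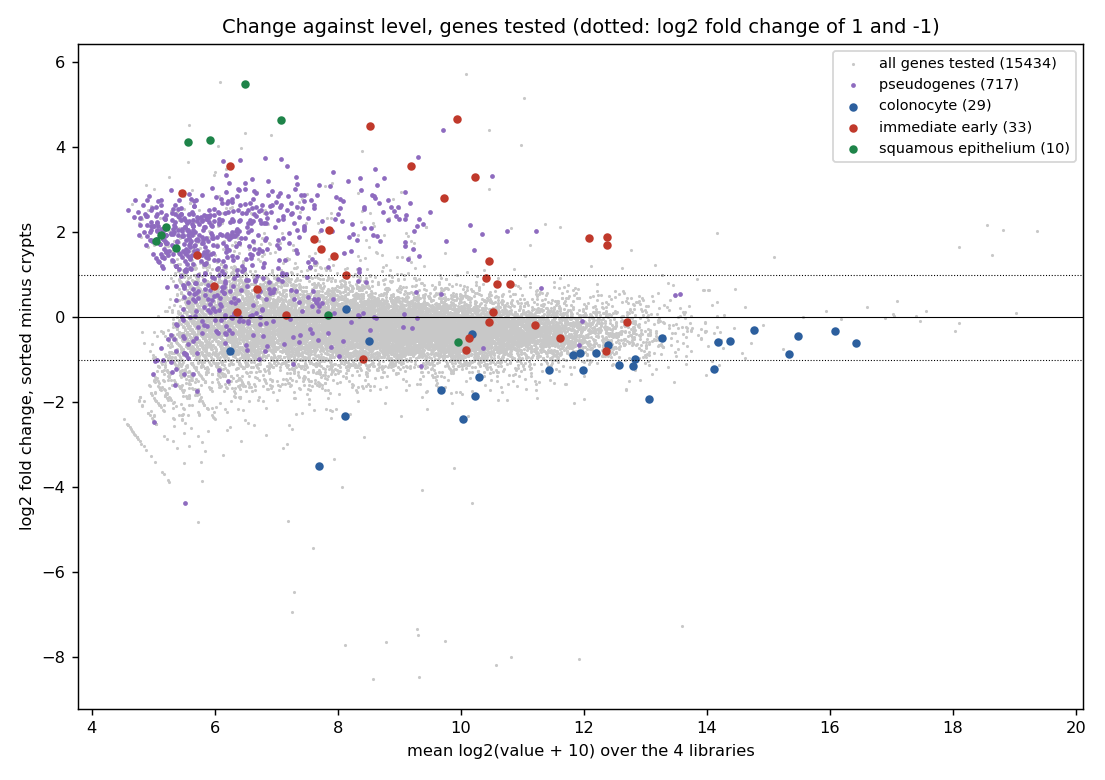
Log2 fold change (sorted minus WT crypts) against mean log2(CP20M + 10) of the 4 libraries, 1 point per tested gene, with pseudogenes and members of the colonocyte, immediate early and squamous lists in colour and dotted lines at 1 and -1. Pseudogenes lie mostly above 0 (436 of 717 called higher), and the lowest points, below -7, are the Gm models described next to the mitochondrial genes.

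Beyond named pathways, the calls split by the kind of gene. Of 12205 protein-coding genes tested, 160 were higher (1.31%) and 693 lower (5.68%). Of 560 processed pseudogenes, which are retrotransposed copies of mRNAs, 394 were higher (70.4%) and 2 lower, with a median log2 fold change of 1.92. Of the 560, 325 reached 40 CP20M in the sorted samples alone and had to be high there, and among the 235 others 133 were higher (56.6%), against 95 of 12072 protein-coding genes (0.787%). Pseudogenes of every kind took 0.519% and 0.522% of the crypt reads and 1.17% and 1.31% of the sorted reads. In 3 pairs picked after their values were seen, the copy was called higher and the parent was not. *Tpt1* had a log2 fold change of 0.06 and its copy *Tpt1-ps3* 2.04, *Rps26* 0.21 and *Rps26-ps1* 2.94, and *Krt8* -0.62 and *Krt8-ps* 2.20. Among 85 cytosolic ribosomal protein genes tested 4 rose, a share near the 4.64% of all tested genes. These 4 were the copies *Rps3a3*, *Rps3a2*, *Rpl6l* and *Rps12l1*. Both sorted samples lay above all 7 crypt libraries for 48 of the 85 and below all 7 for 0, beside 10.8% and 34.0% of all tested genes.

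The share of a gene's sequence found elsewhere moved with the calls. Of 8571 genes that shared none of their 50-base words with another gene's transcripts, 1.56% were higher, of 5057 that shared under 20% of them 1.72%, of 1123 that shared 20% to under 80% 25.0%, and of 642 that shared 80% or more 33.0%. Leaving out genes that reached 40 CP20M in the sorted samples alone, these shares were 0.927%, 0.906%, 10.2% and 22.3%. Genes that share 20% or more took 15.2% and 14.9% of the crypt reads and 21.1% and 24.03% of the sorted reads. The classes of 20% to under 80% and of 80% or more held 281 and 212 of the 716 higher genes. Refitted without these genes, 198 genes were higher and 696 lower, and 684 were called when the rest was also rescaled to 20000000. The cause of this relation was not tested.

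**Figure D4:**
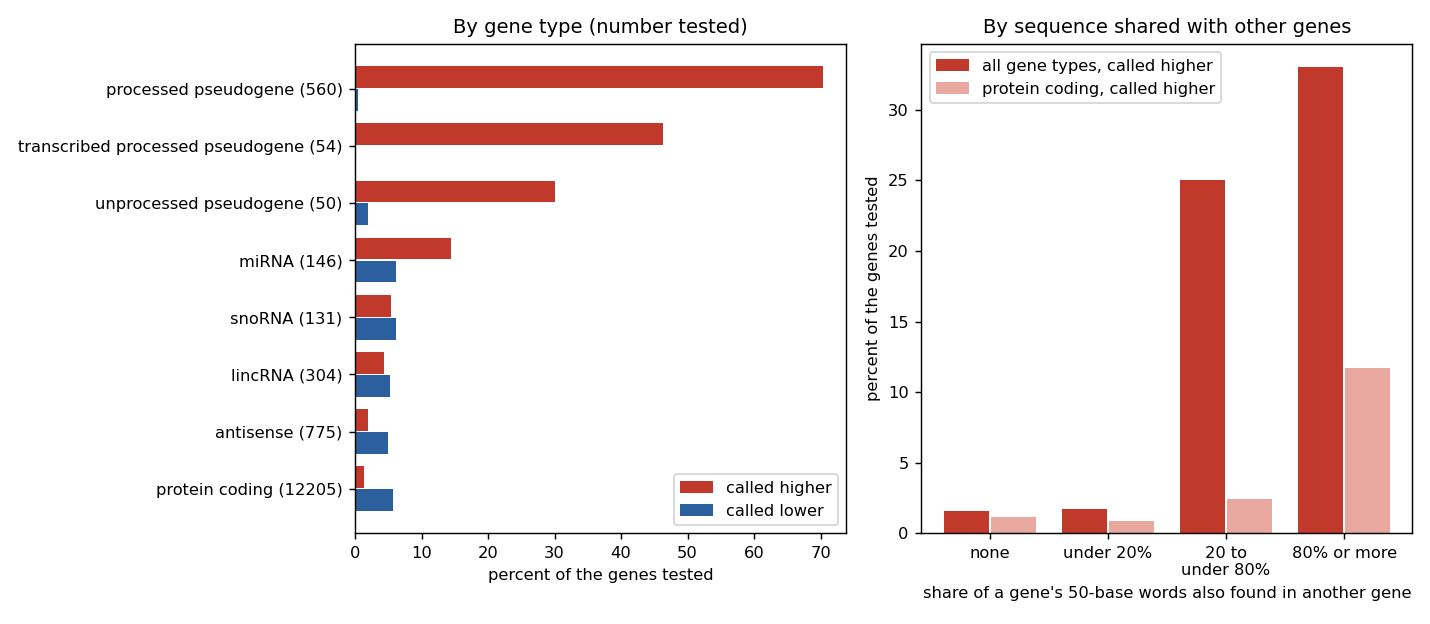
Percent of tested genes called higher and called lower in the sorted cells (bars from 0), by gene type and by the share of 50-base words found in another gene. Processed pseudogenes reach 70.4% higher against 1.31% of protein-coding genes.

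The mitochondrial mRNAs divided too. Of 13 tested 4 rose and 0 fell. *mt-Atp8* (chrM:7766-7969, plus strand), a subunit of ATP synthase, was 150 and 129 CP20M in the WT crypts and 7241 and 8435 CP20M in the sorted samples, a log2 fold change of 5.71 ± 0.15 (SE; limma adjusted p = 9.42e-07). *mt-Atp6*, which overlaps it, was 408 and 283 CP20M in the WT crypts and 11451 and 13376 CP20M in the sorted samples, a log2 fold change of 5.15 ± 0.18 (SE; limma adjusted p = 2.67e-06). The cytochrome oxidase subunits *mt-Co2* and *mt-Co3* were 347 and 252 CP20M in the WT crypts and 6132 and 6894 CP20M in the sorted samples, and 536 and 440 CP20M in the WT crypts and 3487 and 4572 CP20M in the sorted samples, log2 fold changes of 4.41 and 3.01. *mt-Atp6*, *mt-Co2* and *mt-Co3* shared 100% of their words with other annotated genes and *mt-Atp8* 0%. The 9 other mRNAs of this genome had log2 fold changes of -0.45 to 0.44 and none was called. The summed list was 1639881 and 1429932 CP20M in the WT crypts and 1644345 and 1549231 CP20M in the sorted samples, ranges that overlap. The 2 ribosomal RNAs of the genome also rose, *mt-Rnr1* by 1.65 and *mt-Rnr2* by 1.46 on the log2 scale. The whole mitochondrial genome took 10.7% and 9.31% of the crypt reads and 13.9% and 14.8% of the sorted reads. *Lars2*, the mitochondrial leucyl-tRNA synthetase, was 9334 and 9272 CP20M in the WT crypts and 33797 and 39510 CP20M in the sorted samples, a log2 fold change of 1.97 ± 0.11 (SE; limma adjusted p = 5.39e-05).

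The deepest losses were in gene models that resemble each other. *Gm10800* was 137374 and 168629 CP20M in the WT crypts and 921 and 1059 CP20M in the sorted samples, a log2 fold change of -7.25 ± 0.13 (SE; limma adjusted p = 1.15e-07), and *Gm21738* was 51304 and 76719 CP20M in the WT crypts and 242 and 216 CP20M in the sorted samples, a log2 fold change of -8.04 ± 0.18 (SE; limma adjusted p = 3.39e-07). A further 7 models among the 10 lower protein-coding genes with the smallest p (*Gm17535*, *Gm10722*, *Gm10718*, *Gm10719*, *Gm10801*, *Gm11168* and *Gm10717*) had log2 fold changes of -8.50 to -7.34. These share 25.0% to 82.7% of their words with other genes, so reads cannot be assigned to one of them with certainty. Short noncoding RNAs differed by annotated type. Higher were 12 of 34 miscellaneous RNAs, 11 of 14 ribosomal RNAs (mitochondrial ones apart), 9 of 31 small nuclear RNAs and 21 of 146 microRNAs. Of these types 0, 0, 2 and 9 were lower. Leaving out genes that reached 40 CP20M in the sorted samples alone, 8 of 30, 7 of 9, 5 of 26 and 12 of 132 were higher. Mitochondrial tRNAs were higher in 8 and lower in 2 of 22, and small nucleolar RNAs in 7 and 8 of 131. *Rn7s1* and *Rn7s2*, the RNA of the signal recognition particle, rose, the first by 1.79 on the log2 scale. In the lists made by gene name, 3 of 65 small nucleolar and Cajal body RNAs rose and 4 fell. Of the 73 microRNA genes listed by name 5 rose and 6 fell (4 of the 73 reached 40 CP20M in the sorted samples alone and 10 in the crypts alone). Over all tested genes 4.64% rose and 5.27% fell. Apart from these short RNAs, 5 of 61 histone genes tested rose (4 of the 61 reached 40 CP20M in the sorted samples alone). Of these, *Hist2h2aa1*, *Hist1h2ao*, *Hist1h2br* and *Hist1h2ap* shared 88.2% to 90.5% of their words with other genes. *Meg3* and *Pvt1* fell among the long noncoding RNAs.

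The contrast of KO mice gives the same step, crypts against sorted cells, in other animals and another cell type. There 16632 genes were tested and 5679 called (34.1%), 1400 higher in the GFP+ve pools (8.42%) and 4279 lower (25.7%), with a median log2 fold change of -0.56. KO pool 1 held 532704 reads, the fewest of all libraries, and leaving it out gave 3659 calls. Of the 716 genes higher in the WT contrast, 460 were tested in the other and 295 were called higher in both, which is 41.2% of the first list and 21.1% of the second. Of the 814 lower genes 461 were lower in both, 56.6% of the first list and 10.8% of the second. Called in opposite directions were 14 and 19 genes.

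**Figure D5:**
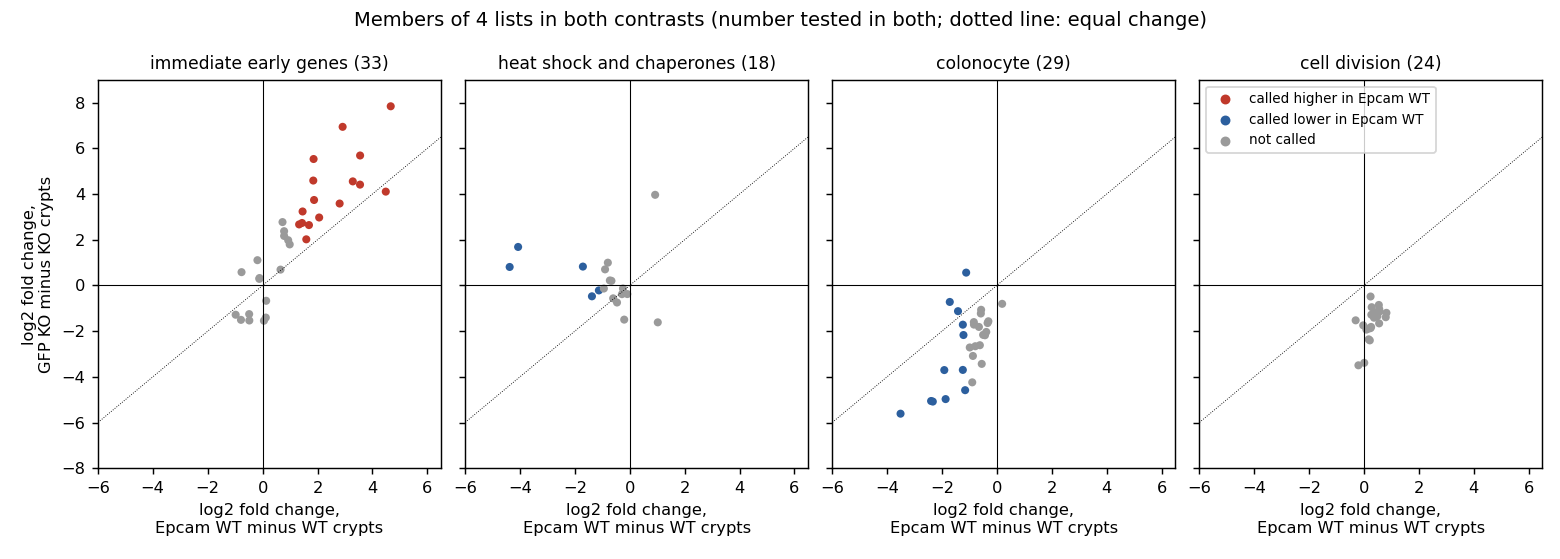
Log2 fold change of sorted GFP+ve KO pools minus KO crypts (vertical) against that of sorted WT cells minus WT crypts (horizontal), 1 point per member tested in both of 4 lists (immediate early, 33; heat shock, 18; colonocyte, 29; cell division, 24), coloured by its call in the WT contrast, with a dotted line of equal change. The 16 immediate early genes that rose lie in the upper right, the division genes lie near 0 on the horizontal axis and below 0 on the vertical one, and *Hspa1a* and *Hspa1b* lie left of 0 and above it.

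All 16 immediate early genes that rose in the WT contrast rose in the KO contrast too, where 22 of 33 members rose, 5 fell and the median was 2.37. *Fosb* was 32514 and 12260 CP20M in the KO pools, with 19021 and 19696 CP20M in those of HE mice, and the KO contrast gave 7.84 on the log2 scale beside 4.67 in the WT contrast. The summed level of the list was 111255 to 210376 CP20M over the 4 GFP+ve pools, above both sorted WT samples. In the colonocyte list 26 of 30 tested fell, 10 of them in both contrasts.

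Heat shock genes did not move alike. *Hspa1b* was 4769 and 988 CP20M in the KO pools and 5685 and 5294 CP20M in the HE pools, with a log2 fold change of 0.81 that did not pass, against -4.37 in the WT contrast, and 1 heat shock gene rose and 2 fell of 18. The difference between the contrasts for *Hspa1b* was -5.18 on the log2 scale (limma adjusted p = 0.00483). Over all 17099 genes tested for such a difference, 1637 were called (9.57%), 5.09% with the higher log2 fold change in the WT contrast and 4.49% with the lower. Of 24 cell division genes 21 were lower in the GFP+ve pools and 0 were called in the WT contrast, and the difference for *Mki67*, the member tested here for it, was 2.18 (limma adjusted p = 8.52e-04).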

How the data were processed

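RNA-seq of 13 libraries of 1 table was used, 4 of them in the main comparison (2 Epcam WT, 2 WT crypts). The 5 crypt libraries of another mouse line, in a table of their own, were not used. Samples were grouped by their titles. According to the methods, libraries were made with the Ovation Solo system and sequenced as paired ends, and reads were mapped with STAR to GRCm38 and counted per Ensembl gene with HTSeq. The submitters' processing notes name GRCm38, mm10 and STAR. The authors deposited for sorted cells a signal, and for crypts a score, each the reads of a gene scaled to 20000000 per library and rounded up. Whole reads were recovered, and 99.89% to 99.99% of values came out whole. The design assumed scaled values, and it was kept, with the tests on counts as alternatives. The counting is not stated to use strand, so a gene and an antisense partner cannot be told apart.

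Genes with at least 40 CP20M in at least 2 of the 4 libraries were tested with limma 3.58.1 (R 4.3.3), with a trend of the spread, on log2(CP20M + 10), which understates the change of low genes. P-values were adjusted by Benjamini-Hochberg over all genes tested, with thresholds of 0.05 and a log2 fold change of 1. The KO contrast (2 pools, 5 crypts) used the same fit, and the difference of contrasts was a term over both. Intervals of low counts are exact binomial intervals of reads at 95%, floors are 3 reads, and both cover counting error only. Recovered reads on genes were 532704 to 8837749 per library. The sorted samples differed from each other beyond sampling noise (chi-square of 3.46 per degree of freedom over 14581 genes). The WT crypts did too (4.38 over 18862 genes). Each library was entered in the fit as 1 sample. This check cannot show that the 2 sorted samples, both of 1 mouse, stand for separate animals. The fits were tested on simulated data.

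Gene names, types and positions came from GENCODE M21 (GRCm38), which matched 52403 of 52636 genes, and shared words are 50-base words of its transcripts, sampled, on the sense strand. Alternatives were pseudocounts of 1 and 40, other filters, TMM and median-of-ratios rescaling, edgeR 4.0.16 and DESeq2 1.42.0 on recovered reads, other thresholds, thinned crypt reads, no trend, a replicate block, other sets of libraries and leaving out each library. Leaving out word-sharing genes was chosen after seeing the data. Leaving out 1 library of a pair assumes that the lone sample varies like the others. The members, the 38 gene lists and the tests were chosen with earlier results of these data known. Named are the 10 protein-coding genes with the smallest p in each direction, *Krt5*, *Krt14*, 16 defining markers and up to 4 called genes per list and direction, and genes outside this rule were picked after their values were seen.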

Additional observations from a re-analysis of the deposited data

Results flagged for a closer look

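In 115 groups of 5 KO crypt libraries, 1 group per named gene, 4 held a library far from the other 4. The highest library held 16187 CP20M of *Lars2* (next 9817) and 178 CP20M of *Synpo2* (next 114), and the lowest held 1403 CP20M of *Itgav* (next 1770) and 72 CP20M of *Snora52* (next 100). Chance alone sets such a library apart in about 1 in 20 groups.

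For 103 named genes the change in sorted WT cells was compared with that in the GFP+ve KO pools by the difference of both log2 fold changes in limma, and 27 differed (adjusted p under 0.05 and a difference beyond 1). Over all 17099 genes tested for such a difference 9.57% were called. Most named genes were chosen because they were called in the WT contrast, which is part of the difference. Their count is therefore raised by the choice and is a description only. The sorted cells of the contrasts are of other types and other genotypes, so cell type, genotype and pool cannot be told apart in these values. Each value is the WT contrast minus the KO contrast, followed by both log2 fold changes.

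Immediate early, heat shock and Hippo pathway genes differed by -3.17 for *Fosb* (4.67 beside 7.84, adjusted p = 0.00374), -2.14 for *Nr4a1* (3.55 beside 5.69, adjusted p = 0.0228), -1.27 for *Atf3* (3.28 beside 4.55, adjusted p = 0.0280), -5.18 for *Hspa1b* (-4.37 beside 0.81, adjusted p = 0.00483), -5.75 for *Hspa1a* (-4.06 beside 1.68, adjusted p = 0.00826) and -1.69 for *Lats2* (-2.16 beside -0.47, adjusted p = 0.0159). For the immediate early genes both contrasts were positive, and for the Hsp70 genes only the WT contrast was negative.

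Among epithelial genes the differences were -5.49 for *Chga* (0.34 beside 5.83, adjusted p = 3.15e-04), -6.31 for *Insl5* (-3.86 beside 2.44, adjusted p = 3.15e-04), -5.09 for *Pyy* (-1.54 beside 3.55, adjusted p = 2.91e-04), -1.68 for *Krt20* (-1.12 beside 0.56, adjusted p = 0.00349), 3.11 for *Slc9a3* (-1.87 beside -4.97, adjusted p = 0.0463), 2.18 for *Mki67* (0.79 beside -1.39, adjusted p = 8.52e-04), 2.53 for *Dclk1* (0.04 beside -2.49, adjusted p = 0.0131), 2.42 for *Duox2* (-1.24 beside -3.66, adjusted p = 0.0274), 3.12 for *Saa1* (-2.28 beside -5.39, adjusted p = 0.00152) and -2.14 for *Hoxd13* (-2.29 beside -0.15, adjusted p = 0.0252). *Chga*, *Insl5* and *Pyy* are genes of the enteroendocrine cells that the GFP gate selects.

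For matrix genes they were 2.99 for *Col17a1* (2.94 beside -0.05, adjusted p = 0.0161), 3.05 for *Lama3* (-1.02 beside -4.07, adjusted p = 0.00936) and 2.98 for *Col1a1* (0.05 beside -2.92, adjusted p = 0.0309).

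Among mitochondrial mRNAs they were 3.40 for *mt-Atp8* (5.71 beside 2.31, adjusted p = 2.91e-04), 2.87 for *mt-Atp6* (5.15 beside 2.28, adjusted p = 2.91e-04), 2.55 for *mt-Co2* (4.41 beside 1.87, adjusted p = 7.92e-04) and 2.21 for *mt-Co3* (3.01 beside 0.80, adjusted p = 9.41e-04), and among short RNAs 1.30 for *Snord118* (1.21 beside -0.10, adjusted p = 0.0187), -1.12 for *Mir6236* (1.23 beside 2.34, adjusted p = 0.00826), -2.12 for *Mir8104* (-2.36 beside -0.25, adjusted p = 0.0187) and -1.26 for *Mir8114* (-1.19 beside 0.07, adjusted p = 0.0346).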

How the results depend on the processing

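The 1530 genes called in sorted cells against crypts became 961 when all 13 libraries of the table were fitted together, 2567 with WT and KO crypts as 1 group, 953 with DESeq2, 758 with a mean of at least 200 CP20M, 894 without genes that share 20% or more of their words, 684 with the rest rescaled as well, 116 at an adjusted p under 0.001 and a log2 fold change beyond 2, 4529 at looser thresholds (an adjusted p of at most 0.2), and 751 to 2232 with 1 library left out (837 without WT crypts 1, 751 without WT crypts 2). Without the filter limma called 0 genes, with 9954 at an unadjusted p under 0.05 among 35855 genes. The other alternatives, all with the filter, gave 1185 to 1744 calls, edgeR 1409. Without Epcam WT 1 the 2232 calls were 445 higher and 1787 lower. The 5679 calls of the KO contrast became 2714 with DESeq2, 2391 with edgeR, 3128 with a mean of at least 200 CP20M, 400 and 9847 at the stricter and looser thresholds, and 3659 to 8050 with 1 library left out (3659 without KO pool 1).

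Of the leading lists, the 16 immediate early genes became 0 without the filter and 14 to 16 with 1 library left out. The 5 lower heat shock genes became 0 without the filter, 3 without a trend of the spread, 2 without word-sharing genes, rescaled or not, and 4 to 8 with 1 library left out (8 without WT crypts 2). The 12 lower colonocyte genes became 7 with edgeR, 7 with DESeq2, 0 without the filter and 12 to 14 with 1 library left out. The 8 squamous genes became 2 with a mean of at least 200 CP20M, 5 with the crypt reads thinned, 4 without word-sharing genes, rescaled or not, 0 without the filter, 0 without either sorted sample and 4 without either crypt library. Of 102 named genes called, 47 kept their call in every alternative that tested them, leaving aside no filter and word sharing. No filter lost all 102. Leaving out word-sharing genes left 77 of the 115 named genes to test, of which 3 lost their call, or 18 with rescaling. The named genes left out could not be assessed in those settings. None changed direction.

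Replicate numbers name samples of 1 mouse in one group and mice in the other, so they share only a number. Deviations of same-numbered libraries correlated at -0.00167 over 15434 genes. With the number as a replicate block 1744 genes were called, the calls of the 115 named genes and the counts of these lists were the same, and the KO contrast, with correlations of 0.0871 and -0.0413, had 110 calls. One read of a sorted sample is worth 8.94 or 10.3 CP20M, which limits genes under about 40 CP20M there.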

Other observations

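Genes in no list are given here, picked after their values were seen among called protein-coding genes that share under 20% of their words. Higher in the sorted cells were secreted factors: *Edn1*, the vasoconstrictor endothelin, was 134 and 236 CP20M in the WT crypts and 1457 and 1439 CP20M in the sorted samples, a log2 fold change of 2.95 ± 0.26 (SE; limma adjusted p = 3.71e-04), and *Thbs1*, the matrix protein thrombospondin, was 1369 and 1637 CP20M in the WT crypts and 7125 and 5990 CP20M in the sorted samples, a log2 fold change of 2.12 ± 0.14 (SE; limma adjusted p = 1.18e-04). The KO contrast gave -0.27 for *Edn1* and 1.97 for *Thbs1*. *Arc*, an activity-induced gene best known from neurons, was 8 and 16 CP20M in the WT crypts and 394 and 278 CP20M in the sorted samples (log2 fold change 3.98 ± 0.40).

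Genes best known from other organs were seen at low level. *Muc5ac*, the mucin of stomach and airway, was 8 and 12 CP20M in the WT crypts and 251 and 144 CP20M in the sorted samples (log2 fold change 3.33 ± 0.44, limma adjusted p = 0.00224). *Tg*, thyroglobulin, was 14 and 7 CP20M in the WT crypts and 555 and 278 CP20M in the sorted samples (limma adjusted p = 7.85e-04). Both rose in both samples of the 1 sorted mouse, and whether other mice show it was not tested.

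Lower in the sorted cells were *C3*, a complement component, at 2110 and 761 CP20M in the WT crypts and 18 and 21 CP20M in the sorted samples, a log2 fold change of -5.44 ± 0.45 (SE; limma adjusted p = 3.00e-04), and *Tgm3*, a transglutaminase, at 2828 and 3757 CP20M in the WT crypts and 331 and 216 CP20M in the sorted samples, a log2 fold change of -3.56 ± 0.23 (SE; limma adjusted p = 9.61e-05). *C3* differed between the crypt mice, and both lay far above the sorted samples. *Mxd1*, a factor of maturing cells that opposes Myc, was 8325 and 7647 CP20M in the WT crypts and 2271 and 1932 CP20M in the sorted samples, a log2 fold change of -1.92 ± 0.12 (SE; limma adjusted p = 9.61e-05). *Mep1b*, a brush border protease, fell by 2.03 and *Ces2a*, a carboxylesterase, by 1.70 on the log2 scale, with -3.25 and -3.27 in the KO contrast.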
